A study of Mus musculus with 11 samples.

Results

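The genes described here are 9 mouse genes of blood coagulation and of the plasminogen system, chosen by name. They are tissue factor (F3), the tissue factor pathway inhibitors Tfpi and Tfpi2, thrombomodulin (Thbd), the plasminogen activators Plat and Plau, the urokinase receptor Plaur and the serpins Serpine2 and Serpinb2. The count tables list 36528 gene IDs. Of the 9 genes, 8 were among the 18224 with enough counts to test, and Tfpi2 was not.

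The libraries were made from polyA RNA of mouse cell lines that were derived from liver tumours, with 5 libraries from TAZ-S89A lines, 3 from YAP-5SA lines and 3 from YAP-S127A lines. YAP and TAZ are related transcriptional coactivators that work through TEAD factors, and the Hippo kinases hold both of them back by phosphorylating serines. In each mutant alanine replaces such serines, at the site in its name for TAZ-S89A and YAP-S127A and at several sites for YAP-5SA, which the sample labels spell YAP-S5A. The sources used here do not give how the mutants were introduced or which promoter drives them, and lines without a mutation were not analysed here. Whether replicates are separate tumours, lines or cultures is not said in the labels. The p-values therefore measure no more than the spread from library to library, which may be technical. The mutant and the identity of the line cannot be told apart. In bulk RNA, fewer cells of a type and less RNA per cell cannot be told apart either.

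Tissue factor on a cell surface binds factor VII and starts the clotting cascade, which ends in thrombin and fibrin. TFPI blocks the first step, and thrombomodulin turns thrombin towards activating the anticoagulant protein C. Clots and matrix are taken apart by plasmin, which tissue-type and urokinase-type activators release from plasminogen, while serpins hold the activators in check. In the liver, hepatocytes secrete most clotting factors and plasminogen, whereas the 9 genes here are better known from endothelial, stromal, epithelial and tumour cells.

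Total counts per library ran from 20071144 to 49159713. TAZ-S89A replicates 4 and 5 carry sample IDs of a second number series. They also had the lowest totals, 20246736 and 20071144, where every other library held 32314692 or more. In chi-square per degree of freedom over gene counts, these replicates differed from each other by 2.08, replicates 1 and 2 by 5.98, and the 2 pairs from each other by 137 to 168. Replicate 3 stood apart as well, by 110.05 and 122 from replicates 1 and 2 and by 219 and 236 from replicates 4 and 5. In YAP-5SA, replicate 2 differed by 90.2 and 143 from the others, which differed by 16.8, and in YAP-S127A, replicate 3 differed by 35.7 and 16.8 from the others, which differed by 6.72. These values grow with depth as well as with the difference between libraries. The 2.08 of TAZ-S89A replicates 4 and 5 is thus not directly comparable with the other pairs. The tissue label is liver, but the 12 hepatocyte markers summed to 1.86 to 2.90 CPM (a count relative to the scaled total of its library) in TAZ-S89A, 31.5 to 47.4 in YAP-5SA and 20.7 to 25.5 in YAP-S127A, and albumin stayed at or below 1.31 CPM in every library. On average 12 of the 12 were under 1 CPM in TAZ-S89A and 9 in each YAP group. Ass1, Trf and Hnf4a were above it, at 20.9 ± 8.42, 8.70 ± 1.11 and 7.16 ± 0.481 CPM in YAP-5SA. They were at 5.84 ± 1.27, 7.66 ± 0.985 and 8.26 ± 0.874 CPM in YAP-S127A. The 10 endothelial markers summed to 0.377 to 1.18 CPM in TAZ-S89A, 1.31 to 1.65 in YAP-5SA and 9.09 to 11.3 in YAP-S127A.

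The order of the groups was not the same for every gene. YAP-5SA libraries held the most F3 and Plaur. Tfpi was abundant in YAP-S127A libraries alone. TAZ-S89A libraries held the least Thbd and Serpinb2 and the most Serpine2, while Plat did not separate the groups. Against YAP-S127A, 7 of the 8 tested members passed an adjusted p of 0.05 and were called in TAZ-S89A, 2 higher and 5 lower, where 57.6% of all tested genes were called, 27% higher and 30.6% lower. Against YAP-5SA, 6 of 8 were called in TAZ-S89A, 1 higher and 5 lower, where 57.9% of all genes were called, 26.9% higher and 31% lower. Between YAP-5SA and YAP-S127A, 4 of 8 were called, 2 higher and 2 lower in YAP-5SA, where 55.2% of all genes were called, 28.2% higher and 27% lower. With most of all tested genes called, these shares say little about the members as a set. The median log2 fold change of the tested members was -0.83, -1.26 and 0.21 in the 3 comparisons, and that of all tested genes was -0.03, -0.04 and 0.01.

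**Figure D1:**
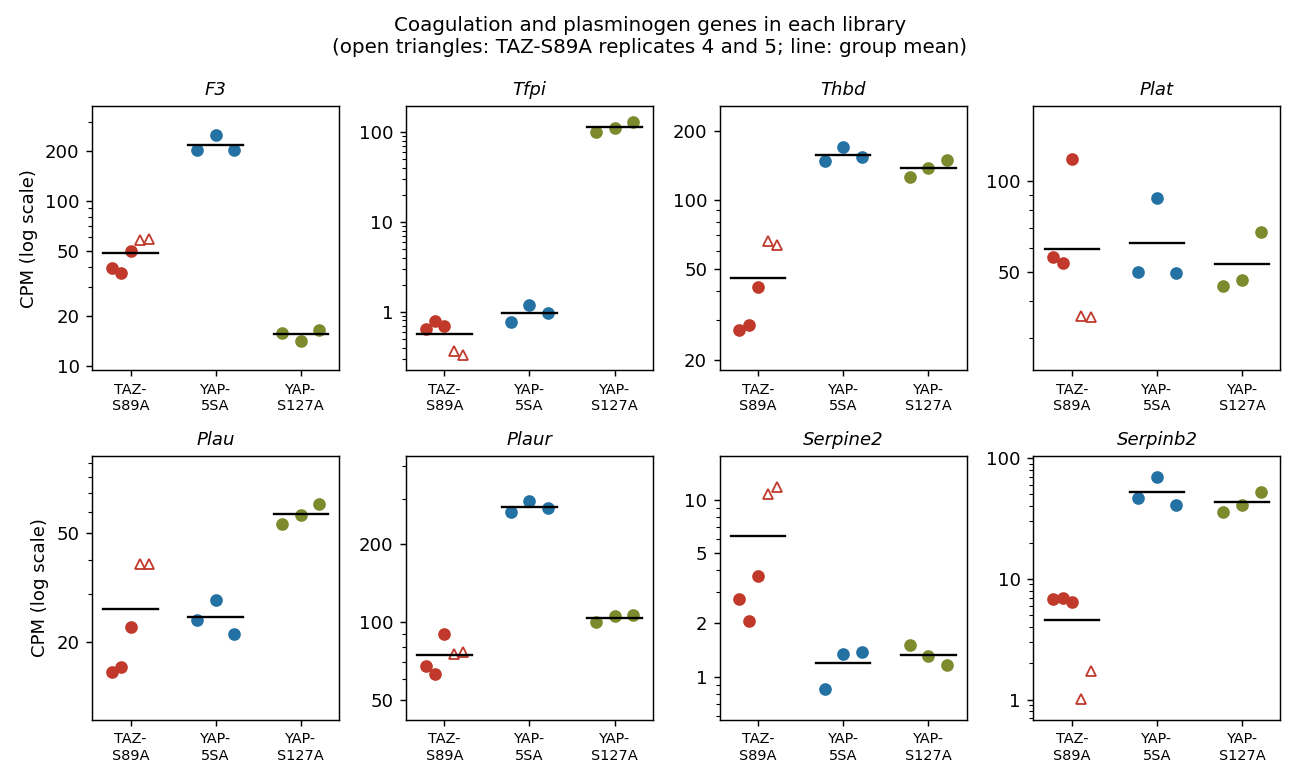
CPM of the 8 tested members in each library, on log axes, with TAZ-S89A, YAP-5SA and YAP-S127A from left to right, 1 point per library and a line at each group mean. F3 and Plaur are highest in the 3 YAP-5SA libraries, Tfpi is above 99 CPM in YAP-S127A alone, and the open triangles of TAZ-S89A replicates 4 and 5 sit apart for Thbd, Plau, Serpine2 and Serpinb2.

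Tissue factor, the membrane receptor that starts coagulation, showed the largest increase of the 8 tested members in YAP-5SA over YAP-S127A. F3 (Entrez gene 14066, chromosome 3, 121723537 to 121735052, plus strand, GRCm38) was at 39.3, 36.8, 49.3, 58.2 and 58.3 CPM in TAZ-S89A replicates 1 to 5. It was at 203, 249 and 204 CPM in the YAP-5SA libraries and at 15.9, 14.1 and 16.6 CPM in the YAP-S127A libraries. No library of any group overlapped with another group. F3 averaged 48.4 ± 10.2 CPM in TAZ-S89A (SD, n = 5), 219 ± 26.3 in YAP-5SA and 15.5 ± 1.27 in YAP-S127A (n = 3 each). YAP-5SA exceeded YAP-S127A by a log2 fold change of 3.82 (SE 0.21, edgeR adjusted p = 4.61e-09), a 14.1-fold difference. TAZ-S89A lay between them, 1.64 above YAP-S127A (SE 0.18, adjusted p = 4.01e-06) and below YAP-5SA, where the log2 fold change was -2.18 (SE 0.17, adjusted p = 7.16e-08). The membrane protein gene Tspan7 had the pattern across the 11 libraries closest to that of F3, with a root mean square difference of 0.15 on the centred log2 scale. Tspan7 averaged 9.82 ± 2.88 CPM in TAZ-S89A, 47.9 ± 4.57 in YAP-5SA and 2.75 ± 0.391 in YAP-S127A. Lynx1 came next at 0.21.

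RefSeq promoter windows of GRCm38.p6, the 250 bases before a transcript start, were at hand for 6 of the 9 genes, in 10 windows. The AP-1 motif TGANTCA, which reads alike on both strands, was found in 5 of the 10 windows, from 4 genes, against 6.75% of 32851 windows of all genes. The TEAD motif GGAATG was found on neither strand in any of the 10 windows, against 12.6% of all windows, and the Sp1 motif GGGCGG on either strand in 6 of 10, against 32.7%. By gene, the AP-1, TEAD and Sp1 letters were in 4, 0 and 5 of the 6, against 2113, 3880 and 9555 of 27025 genes. With 10 windows from 6 genes, some of them overlapping, these counts say little about the members as a set. That holds for the absence of TEAD letters too. The windows of F3, Plaur and Serpinb2 are shown because they hold the AP-1 letters, in capitals, and their genes were called different between groups. All are on the plus strand and read 5′ to 3′, at chr3:121723287-121723536 for F3, chr7:24462233-24462482 for Plaur and chr1:107511173-107511422 for Serpinb2.
F3: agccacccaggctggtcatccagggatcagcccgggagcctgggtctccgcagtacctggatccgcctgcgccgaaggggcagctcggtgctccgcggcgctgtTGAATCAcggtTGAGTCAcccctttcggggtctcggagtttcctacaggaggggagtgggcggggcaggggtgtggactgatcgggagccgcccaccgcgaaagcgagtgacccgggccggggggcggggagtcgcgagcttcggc
Plaur: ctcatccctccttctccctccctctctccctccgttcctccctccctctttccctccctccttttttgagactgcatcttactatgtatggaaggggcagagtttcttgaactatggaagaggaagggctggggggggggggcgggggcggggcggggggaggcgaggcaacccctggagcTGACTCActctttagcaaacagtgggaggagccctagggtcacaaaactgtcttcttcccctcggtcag
Serpinb2: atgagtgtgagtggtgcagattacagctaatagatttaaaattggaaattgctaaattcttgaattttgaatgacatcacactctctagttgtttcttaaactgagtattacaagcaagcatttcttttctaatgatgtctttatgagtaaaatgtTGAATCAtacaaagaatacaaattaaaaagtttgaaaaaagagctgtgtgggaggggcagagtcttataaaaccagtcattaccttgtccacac
F3 held the AP-1 letters at 146 to 140 and at 135 to 129 bases before the start, without overlap with its 3 Sp1 matches. Plaur held them at 69 to 63 bases and Serpinb2 at 94 to 88 bases before the start, and a further Serpinb2 window, for a start downstream, overlaps this one and holds the same match. Of the 3 Tfpi2 windows, 1 held the letters at 77 to 71 bases, and the Tfpi and Serpine2 windows held none. The Plaur and Serpinb2 windows, and the Tfpi2 window with the letters, lie inside the spans given for these genes. Their transcript starts are thus downstream of the annotated gene start, and which start the cells use was not tested. These matches describe the letters of the windows and do not show that a factor binds there.

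Tfpi, the secreted and surface-bound inhibitor of the tissue factor and factor VII complex, was close to absent outside YAP-S127A. Tfpi (Entrez gene 21788, chromosome 2, 84432855 to 84476775, minus strand) was at 0.637, 0.780, 0.696, 0.367 and 0.334 CPM in TAZ-S89A replicates 1 to 5. It was at 0.775, 1.20 and 0.968 CPM in the YAP-5SA libraries and at 99.8, 111 and 129.9 CPM in the YAP-S127A libraries. The YAP-S127A libraries stood far above all others, and the TAZ-S89A and YAP-5SA libraries overlapped. The group means were 0.563 ± 0.201 CPM in TAZ-S89A, 0.980 ± 0.210 in YAP-5SA and 113 ± 15.2 in YAP-S127A. Tfpi was 191-fold lower in TAZ-S89A than in YAP-S127A (log2 fold change -7.58, SE 0.22, adjusted p = 5.36e-12) and 115-fold lower in YAP-5SA than in YAP-S127A (-6.84, SE 0.26, adjusted p = 1.48e-10). The smaller difference of TAZ-S89A from YAP-5SA was called at -0.73 (SE 0.25, adjusted p = 0.0223). That call was lost without TAZ-S89A replicates 4 and 5 (-0.46, adjusted p = 0.0827), with the ID series as a covariate (0.0583), with only the groups compared (0.0689) and without YAP-5SA replicate 2 (0.1165). The second ID series holds replicates 4 and 5 alone, so the covariate and leaving them out are not separate checks. Over 19 alternatives the adjusted p ranged from 0.0117 to 0.1165. The genes closest in pattern were the collagen VI chain gene Col6a3, at 0.406 ± 0.0923 CPM in TAZ-S89A, 0.711 ± 0.243 in YAP-5SA and 88.0 ± 8.63 in YAP-S127A (root mean square difference 0.47), and Mical1 (0.48). Of the 10 stellate cell and mesothelial markers, Pdgfra, Pdgfrb and Acta2 alone had, like Tfpi, their highest group means in YAP-S127A. Pdgfra averaged 0.146 ± 0.0569 CPM in TAZ-S89A, 1.22 ± 0.137 in YAP-5SA and 102 ± 4.60 in YAP-S127A. Pdgfrb averaged 268 ± 37.2, 1.12 ± 0.112 and 474 ± 31.3 CPM in the same groups, and Acta2 averaged 53.1 ± 28.3, 2.78 ± 0.226 and 448 ± 39.9 CPM. The 10 stellate cell and mesothelial markers together summed to 1266 to 2082, 1891 to 2039 and 1747 to 1788 CPM, of which the mesothelial gene Msln made up 1367 ± 356, 1909.8 ± 76.1 and 743 ± 18.5. Lrat was at 0 in TAZ-S89A and in YAP-S127A. The part of such cells in the Tfpi values was not tested. F3 and Tfpi thus ran in opposite order between the YAP groups, with high F3 and low Tfpi in YAP-5SA, against low F3 and high Tfpi in YAP-S127A.

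Tfpi2, a related Kunitz-type inhibitor of plasmin and other proteases, was at or near 0 everywhere. Tfpi2 (Entrez gene 21789, chromosome 6, 3962589 to 3988978, minus strand) had 0 counts in all 5 TAZ-S89A libraries, which over their 158440551 counts allows up to 0.0189 CPM. It had 1 count among the YAP-5SA libraries and 2 among the YAP-S127A libraries, so no difference was detectable at this depth. The limit covers counting error only.

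Thrombomodulin, the surface cofactor that redirects thrombin to protein C, was lower in TAZ-S89A than in either YAP group. Thbd (Entrez gene 21824, chromosome 2, 148404471 to 148408188, minus strand) was at 27.2, 28.5, 41.9, 66.2 and 63.9 CPM in TAZ-S89A replicates 1 to 5. It was at 148, 170.4 and 154 CPM in YAP-5SA and at 126, 137 and 149 CPM in YAP-S127A. All TAZ-S89A libraries lay below all YAP libraries, the YAP groups overlapped, and replicates 4 and 5 were the highest of TAZ-S89A. The means were 45.5 ± 18.8 CPM in TAZ-S89A, 157 ± 11.8 in YAP-5SA and 138 ± 11.3 in YAP-S127A. TAZ-S89A differed by -1.79 from YAP-5SA (SE 0.26, adjusted p = 4.66e-05) and by -1.60 from YAP-S127A (SE 0.26, adjusted p = 0.000144). Without replicates 4 and 5 these values were -2.26 and -2.10, both called. YAP-5SA and YAP-S127A were not called apart at 0.19 (SE 0.30, adjusted p = 0.603). The genes closest in pattern were Rai14 (root mean square difference 0.19) and the matricellular YAP target gene Ccn2 (0.20), at 234 ± 85.6 CPM in TAZ-S89A, 634 ± 15.8 in YAP-5SA and 708 ± 15.9 in YAP-S127A. Of the endothelial markers, from cells in which Thbd is abundant and whose sums stand above, 10 of 10 were under 1 CPM on average in TAZ-S89A, 10 of 10 in YAP-5SA and 8 of 10 in YAP-S127A. In YAP-S127A, Emcn was at 7.61 ± 1.5 and Kdr at 1.25 ± 0.206 CPM. Emcn and Lyve1 were at 0 in TAZ-S89A and Clec4g in YAP-S127A. The part of such cells in the Thbd values was not tested.

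**Figure D2:**
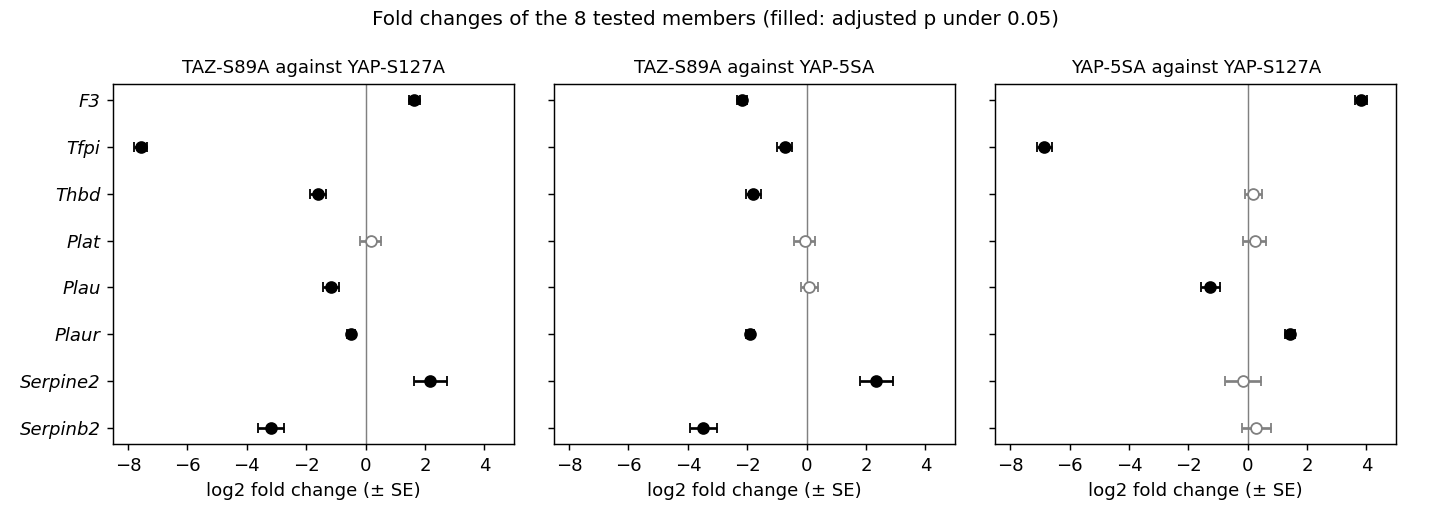
Log2 fold changes of the 8 tested members with standard errors in the 3 comparisons, with the first-named group on top of the fold, filled where the adjusted p was under 0.05. Tfpi has the lowest value against YAP-S127A in both panels that hold it, at -7.58 and -6.84, and Plat lies near 0 in all 3 panels.

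The plasminogen activators behaved unlike each other. Plat, tissue-type plasminogen activator, showed no difference between the groups beyond the spread of their libraries. Plat (Entrez gene 18791, chromosome 8, 22757722 to 22782848, plus strand) was at 56.1, 53.3, 118, 35.6 and 35.2 CPM in TAZ-S89A replicates 1 to 5. It was at 49.7, 87.7 and 49.6 CPM in YAP-5SA and at 44.7, 46.9 and 67.6 CPM in YAP-S127A. The groups overlapped fully, and 1 library in each stood high, TAZ-S89A replicate 3, YAP-5SA replicate 2 and YAP-S127A replicate 3, the libraries that the chi-square values above also set apart. The fold changes were 0.17 for TAZ-S89A against YAP-S127A (SE 0.35, adjusted p = 0.700), -0.06 for TAZ-S89A against YAP-5SA (SE 0.35, adjusted p = 0.893) and 0.23 for YAP-5SA against YAP-S127A (SE 0.39, adjusted p = 0.639). Their signs turned when single libraries were left out, so no direction is given. The gene closest in pattern was Psmd4, a proteasome subunit gene, with a root mean square difference of 0.098. Psmd4 was at 197, 187, 383, 122 and 126 CPM in TAZ-S89A, 195, 330.1 and 173 in YAP-5SA and 138, 160 and 212 in YAP-S127A, with its highest value in each group in the same library as Plat.

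Plau, urokinase, was highest in YAP-S127A. Plau (Entrez gene 18792, chromosome 14, 20836662 to 20843388, plus strand) was at 15.6, 16.2, 22.7, 38.5 and 38.6 CPM in TAZ-S89A replicates 1 to 5. It was at 24.1, 28.4 and 21.5 CPM in YAP-5SA and at 54.1, 58.1 and 64.1 CPM in YAP-S127A. The YAP-S127A libraries lay above all others, and those of TAZ-S89A spanned the YAP-5SA values. Plau averaged 26.3 ± 11.5 CPM in TAZ-S89A, 24.6 ± 3.51 in YAP-5SA and 58.8 ± 5.01 in YAP-S127A. Relative to YAP-S127A it was lower in TAZ-S89A at -1.17 (SE 0.27, adjusted p = 0.00228). In YAP-5SA it was lower too, at -1.25 (SE 0.31, adjusted p = 0.00388). TAZ-S89A was not called against YAP-5SA at 0.09 (SE 0.28, adjusted p = 0.809), whereas without replicates 4 and 5 the value turned to -0.42 and was called (adjusted p = 0.0382). The tested genes of chromosome 14 had a median of -0.53 in TAZ-S89A against YAP-S127A and of -0.76 against YAP-5SA, and the part of this shift in the Plau values was not tested. In pattern Plau was closest to the gelatinase gene Mmp2 (root mean square difference 0.25), at 26.2 ± 15.1 CPM in TAZ-S89A, 21.2 ± 2.05 in YAP-5SA and 56.5 ± 3.0 in YAP-S127A, with next the lipoprotein receptor gene Vldlr (0.25).

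Plaur, the membrane-anchored receptor that gathers urokinase at the cell surface, followed another order, with its highest level in YAP-5SA. Plaur (Entrez gene 18793, chromosome 7, 24460937 to 24475970, plus strand), whose promoter window is printed above, was at 67.3, 62.7, 89.9, 74.8 and 76.3 CPM in TAZ-S89A replicates 1 to 5. It was at 265, 293 and 277 CPM in YAP-5SA and at 100.2, 106 and 106 CPM in YAP-S127A. No library overlapped with another group. Plaur averaged 74.2 ± 10.4 CPM in TAZ-S89A, 278 ± 13.9 in YAP-5SA and 104 ± 3.25 in YAP-S127A. YAP-5SA exceeded YAP-S127A by 1.42 (SE 0.16, adjusted p = 5.56e-06), and TAZ-S89A fell below YAP-5SA at -1.91 (SE 0.14, adjusted p = 4.41e-08). The difference of TAZ-S89A from YAP-S127A was smaller at -0.49 (SE 0.14, adjusted p = 0.00962). All tested genes of chromosome 7 had a median of -0.70 in that comparison and of -0.54 in TAZ-S89A against YAP-5SA, and the part of this shift in the Plaur values was not tested. The cytochrome b5 reductase gene Cyb5r3 was closest in pattern (root mean square difference 0.075), at 271 ± 19.0 CPM in TAZ-S89A, 1017 ± 28.3 in YAP-5SA and 391 ± 24.1 in YAP-S127A, followed by Pltp (0.11). Receptor and ligand thus ran in opposite directions between the YAP groups, with Plaur higher and Plau lower in YAP-5SA.

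F3, Plaur and Serpinb2 are also expressed by activated monocytes and macrophages. The 11 macrophage and leukocyte markers summed to 27.5 to 37.0 CPM in TAZ-S89A, 89.2 to 103 in YAP-5SA and 23.6 to 28.4 in YAP-S127A. Cd14 had the highest mean of the 11 in each group, at 21.9 ± 4.02, 37.2 ± 5.25 and 10.8 ± 2.42 CPM. Csf1r averaged 1.82 ± 0.308, 28.2 ± 3.27 and 7.60 ± 0.351 CPM in the same order. In YAP-5SA the lysozyme gene Lyz2 was at 16.0 ± 4.39 CPM and the complement gene C1qa at 2.50 ± 0.690, while the pan-leukocyte gene Ptprc stayed at or below 0.394 CPM in every library. Adgre1, Clec4f, Marco, C1qa and C1qb were at 0 in TAZ-S89A, Marco in YAP-5SA, and Adgre1, Clec4f and Marco in YAP-S127A. The part of such cells in the YAP-5SA values was not tested.

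The serpins differed in opposite directions. Serpine2, protease nexin 1, inhibits thrombin, urokinase and plasmin at the cell surface, and its mRNA was low in both YAP groups. Serpine2 (Entrez gene 20720, chromosome 1, 79794317 to 79858665, minus strand) was at 2.74, 2.05, 3.68, 10.7 and 11.8 CPM in TAZ-S89A replicates 1 to 5. It was at 0.855, 1.34 and 1.38 CPM in YAP-5SA and at 1.52, 1.31 and 1.17 CPM in YAP-S127A. All TAZ-S89A libraries lay above all YAP libraries, replicates 4 and 5 by the widest margin, and the YAP groups overlapped. The means were 6.20 ± 4.68 CPM in TAZ-S89A, 1.19 ± 0.292 in YAP-5SA and 1.33 ± 0.175 in YAP-S127A. TAZ-S89A was higher by 2.35 than YAP-5SA (SE 0.56, adjusted p = 0.00242) and by 2.18 than YAP-S127A (SE 0.55, adjusted p = 0.0039). Without replicates 4 and 5 the values shrank to 1.25 and 1.05 and remained called. YAP-5SA against YAP-S127A was at -0.16 (SE 0.62, adjusted p = 0.843). The closest patterns, Smarca5 (root mean square difference 0.45) and Cxcl10 (0.46), were less close than those found for F3, Thbd, Plat, Plau or Plaur.

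Serpinb2, plasminogen activator inhibitor type 2, inhibits urokinase in vitro and is mostly kept inside the cell. Serpinb2 (Entrez gene 18788, chromosome 1, 107500892 to 107525600, plus strand) was at 6.82, 6.93, 6.47, 1.02 and 1.71 CPM in TAZ-S89A replicates 1 to 5. It was at 46.8, 69.9 and 41.0 CPM in YAP-5SA and at 35.5, 41.0 and 52.3 CPM in YAP-S127A. All TAZ-S89A libraries lay below all YAP libraries, replicates 4 and 5 were lowest of all, and the YAP groups overlapped. The means were 4.59 ± 2.96 CPM in TAZ-S89A, 52.6 ± 15.3 in YAP-5SA and 42.9 ± 8.58 in YAP-S127A. Serpinb2 was 11.2-fold lower in TAZ-S89A than in YAP-5SA (log2 fold change -3.48, SE 0.45, adjusted p = 1.32e-05) and 9.10-fold lower than in YAP-S127A (-3.19, SE 0.44, adjusted p = 3.25e-05). Without replicates 4 and 5 the values were -2.94 and -2.69, both called. YAP-5SA and YAP-S127A were not called apart at 0.29 (SE 0.48, adjusted p = 0.629). The closest patterns were those of Cib2 (root mean square difference 0.43) and of the complement inhibitor gene Cd59a (0.55).

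Within TAZ-S89A, the 2 libraries of the second ID series differed from replicates 1 to 3 at 7 of the 8 tested members, 4 higher and 3 lower, where 24.8% of all tested genes were called, 10.5% higher and 14.3% lower. The split of all called genes, 1973 higher and 2678 lower with TMM scaling, became 2591 higher and 2314 lower with RLE factors. Serpine2 stood at 11.3 CPM in replicates 4 and 5 on average and at 2.82 in replicates 1 to 3, or 2.0 on the log2 scale (SE 0.23, adjusted p = 6.3e-05). Serpinb2 went the other way, with 1.37 and 6.74 CPM in the same order (-2.31, SE 0.31, adjusted p = 0.000159). Plau at 1.09 (SE 0.17, adjusted p = 0.000415) and Thbd at 1.0 (SE 0.17, adjusted p = 0.000932) were higher in replicates 4 and 5. F3 at 0.48 (adjusted p = 0.0312), Tfpi at -1.0 (0.0371) and Plat at -1.10 (0.0351) were called with larger adjusted p-values. Over 17 alternatives, including those that leave 1 library on a side, F3 lost its call in 3, Tfpi in 9 and Plat in 5. Tfpi had only 9 and 8 counts in replicates 4 and 5. Plat was at 56.1, 53.3 and 118 CPM in replicates 1 to 3, so its mean there leans on replicate 3. Plaur was not called at 0.04 (SE 0.15, adjusted p = 0.884). The labels do not say what the second ID series stands for, and all libraries of the YAP groups belong to the first. Replicates 4 and 5 also had the lowest total counts, so ID series and depth cannot be told apart.

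Per length of transcript, the order of the members differed between groups. On the scale of nRPKM, the authors' count per length and library depth with a size factor, Plaur was highest in each group, at 34.4 ± 5.04 in TAZ-S89A, 128 ± 6.11 in YAP-5SA and 48.1 ± 1.27 in YAP-S127A. Next in TAZ-S89A came F3 at 21.3, Plat at 17.8, Thbd at 10.2, Plau at 9.34, Serpine2 at 2.29, Serpinb2 at 1.80 and Tfpi at 0.0970 nRPKM, where the libraries of F3 and Plat, Plat and Thbd, Thbd and Plau, and Serpine2 and Serpinb2 overlapped. In YAP-5SA the order was F3 at 95.1, Thbd at 34.5, Serpinb2 at 20.9, Plat at 18.7, Plau at 8.57, Serpine2 at 0.427 and Tfpi at 0.169 nRPKM, with overlap of Serpinb2 and Plat. In YAP-S127A Thbd at 30.3, Plau at 20.6, Tfpi at 19.7, Serpinb2 at 17.2, Plat at 16.0, F3 at 6.78 and Serpine2 at 0.481 nRPKM followed Plaur, and the neighbours from Plau to Plat overlapped. F3 therefore ranked 2 in TAZ-S89A and in YAP-5SA and 7 in YAP-S127A among the 8 genes, and Tfpi ranked 8, 8 and 4.

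**Figure D3:**
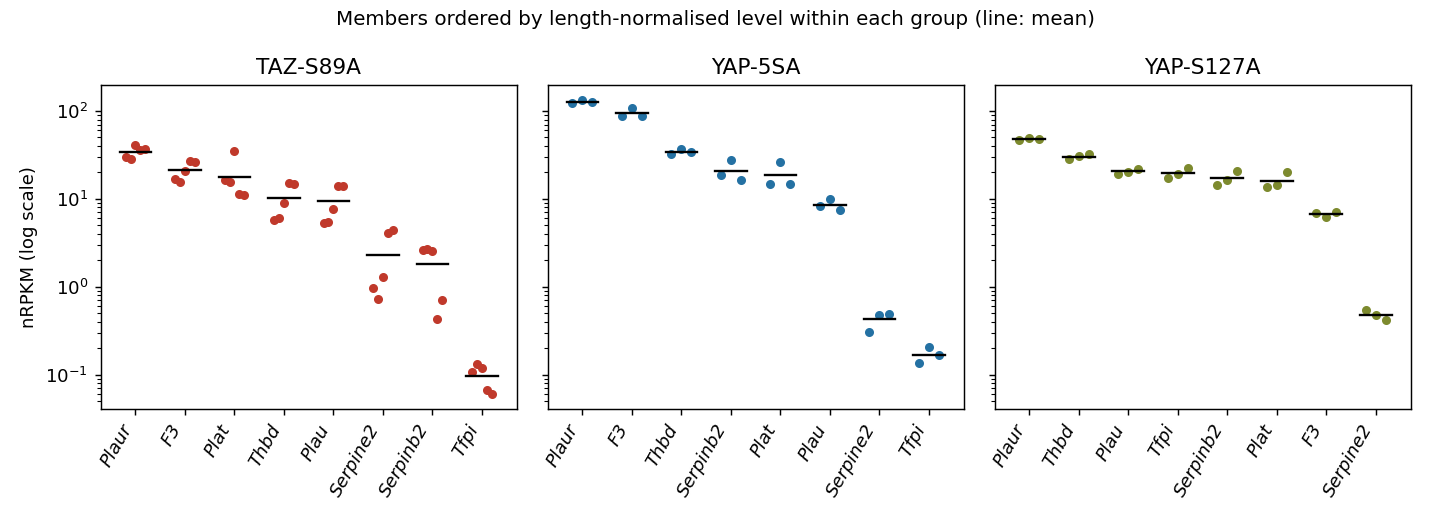
The authors' length-normalised level (nRPKM, log axis) of the 8 tested members in TAZ-S89A, YAP-5SA and YAP-S127A, ordered by group mean from high to low, 1 point per library and a line at the mean. Plaur leads in each group, at 34.4, 128 and 48.1, and Tfpi is last in TAZ-S89A and YAP-5SA but ranks 4 in YAP-S127A.

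Other genes of the pathway were taken from 4 lists. Of the protease-activated receptors, through which thrombin and the tissue factor complex signal to cells, 3 of 4 were tested. Against YAP-S127A all 3 were lower in TAZ-S89A (median -1.77, against -0.03 for all tested genes, of which 30.6% were lower). Against YAP-5SA 2 were lower and 1 was not called (median -1.23, against -0.04 for all genes, 31% lower). In YAP-5SA against YAP-S127A 1 was higher and 2 were not called (median 0.40, against 0.01 for all genes, 28.2% higher). With 3 genes, these counts say little about the receptors as a set. The thrombin receptor F2r averaged 144 ± 36.3 CPM in TAZ-S89A, 337 ± 19.3 in YAP-5SA and 255 ± 2.79 in YAP-S127A. It was lower in TAZ-S89A at -1.23 against YAP-5SA (SE 0.19, adjusted p = 9.52e-05) and -0.83 against YAP-S127A (SE 0.20, adjusted p = 0.00246). F2rl1, the receptor cleaved by trypsin-like proteases and by the tissue factor complex, was at 1.60, 0.936, 1.74, 1.75 and 1.34 CPM in TAZ-S89A, at 17.8, 18.1 and 18.1 CPM in YAP-5SA and at 5.06, 5.25 and 4.64 CPM in YAP-S127A. Its libraries did not overlap between groups, and its order between the YAP groups was that of F3, with a log2 fold change of 1.85 in YAP-5SA against YAP-S127A (SE 0.19, adjusted p = 2.26e-06). F2rl3 was below 1 CPM on average in each group.

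Of the 10 genes listed as anticoagulant proteins, 8 were tested. In TAZ-S89A 1 was higher, 3 were lower and 4 were not called against YAP-S127A (median -0.26), and 0 were higher, 6 lower and 2 not called against YAP-5SA (median -0.98). In YAP-5SA against YAP-S127A 4 were higher, 1 was lower and 3 were not called (median 0.54). Over all tested genes 57.6%, 57.9% and 55.2% were called in these comparisons, with medians of -0.03, -0.04 and 0.01. Procr, the receptor that presents protein C to thrombomodulin, averaged 20.8 ± 3.11 CPM in TAZ-S89A, 34.8 ± 7.06 in YAP-5SA and 7.96 ± 0.311 in YAP-S127A. It was higher in TAZ-S89A than in YAP-S127A at 1.38 (SE 0.16), where its partner Thbd was lower. Protein C itself, Proc, was below 1 CPM on average in each group, as was antithrombin, Serpinc1. Heparin cofactor II, Serpind1, averaged 8.09 ± 4.29 CPM in TAZ-S89A, 29.6 ± 7.19 in YAP-5SA and 9.05 ± 0.678 in YAP-S127A. Within TAZ-S89A it averaged 3.43 CPM in replicates 4 and 5 and 11.2 in replicates 1 to 3. The phospholipid-binding annexin Anxa5 was at 148 ± 39.0, 521 ± 116 and 194 ± 13.8 CPM in the same groups. Gas6, a vitamin K-dependent ligand of TAM receptors, averaged 0.0969 ± 0.0592 CPM in TAZ-S89A, 4.48 ± 0.733 in YAP-5SA and 6.07 ± 0.546 in YAP-S127A. Gas6 stands in this list without being an anticoagulant, and it was among the genes counted as lower in both TAZ-S89A comparisons.

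Genes listed as clotting zymogens, cofactors and fibrinogen chains had too few counts to test in 12 of 22 cases. The list also includes Ggcx, Vkorc1, Vkorc1l1, Lman1 and Mcfd2, which are none of these. They were all tested, so the counts and medians below include them. Ggcx and Vkorc1 were among the lower genes in TAZ-S89A against YAP-S127A, and Vkorc1l1 was among the higher. Of the 10 tested, 2 were higher, 5 lower and 3 not called in TAZ-S89A against YAP-S127A (median -0.47), and 2, 5 and 3 against YAP-5SA (median -1.08). In YAP-5SA against YAP-S127A 5 were higher, 3 lower and 2 not called (median 0.43). The shares called over all tested genes were 57.6%, 57.9% and 55.2%, and their medians -0.03, -0.04 and 0.01. Factor V, F5, averaged 0.0600 ± 0.0497 CPM in TAZ-S89A, 13.6 ± 0.842 in YAP-5SA and 0.333 ± 0.0830 in YAP-S127A. Its log2 fold change in YAP-5SA against YAP-S127A was 5.37 (SE 0.31, adjusted p = 6.74e-09). The kininogen genes Kng1 and Kng2 were at 1.66 ± 0.447 and 23.0 ± 7.10 CPM in YAP-5SA. They are near-identical copies whose reads the counting could split, so these values are uncertain. Factor XI, F11, had 1 pooled count in TAZ-S89A and 2 in YAP-5SA, and averaged 0.625 ± 0.230 CPM in YAP-S127A.

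Of the 20 plasminogen system partners, 14 were tested. In TAZ-S89A 2 were higher, 4 lower and 8 not called against YAP-S127A (median -0.13), and 4, 5 and 5 against YAP-5SA (median 0.28). In YAP-5SA against YAP-S127A 3 were higher, 5 lower and 6 not called (median 0.22). Beside these counts of 6, 9 and 8 called of 14 stand 57.6%, 57.9% and 55.2% called over all tested genes, with medians of -0.03, -0.04 and 0.01. Plasminogen itself, Plg, had 1 count in TAZ-S89A, 0 in YAP-5SA and 1 in YAP-S127A.

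Among the partners that the naming rule picked, Mrc2, the collagen receptor that associates with the urokinase receptor, averaged 0.227 ± 0.114 CPM in TAZ-S89A, 0.153 ± 0.110 in YAP-5SA and 245 ± 16.8 in YAP-S127A. Relative to YAP-S127A it was lower at -10.04 in TAZ-S89A (SE 0.29, adjusted p = 5.36e-12) and at -10.64 in YAP-5SA libraries (SE 0.38, adjusted p = 8.98e-11). Lrp1, the endocytic receptor for protease and serpin complexes, averaged 373 ± 73.8 CPM in TAZ-S89A, 168 ± 35.0 in YAP-5SA and 756 ± 51.3 in YAP-S127A. It was higher in TAZ-S89A than in YAP-5SA at 1.15 (SE 0.23, adjusted p = 0.00059) and lower than in YAP-S127A at -1.02 (SE 0.21, adjusted p = 0.000986). The annexin Anxa2, which binds Plat and plasminogen at the surface, averaged 685 ± 235 CPM in TAZ-S89A, 2097 ± 587 in YAP-5SA and 891 ± 128 in YAP-S127A. The membrane protease gene St14 had 4 pooled counts in TAZ-S89A, and averaged 5.68 ± 0.519 CPM in YAP-5SA and 1.45 ± 0.201 CPM in YAP-S127A. Hgfac, whose product activates hepatocyte growth factor, averaged 15.0 ± 1.49 CPM in TAZ-S89A, 6.84 ± 1.29 in YAP-5SA and 5.76 ± 0.461 in YAP-S127A. The neuroserpin gene Serpini1, whose product inhibits Plat, was at 3.26 ± 1.61, 0.962 ± 0.549 and 2.61 ± 0.790 CPM in these groups.

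**Figure D4:**
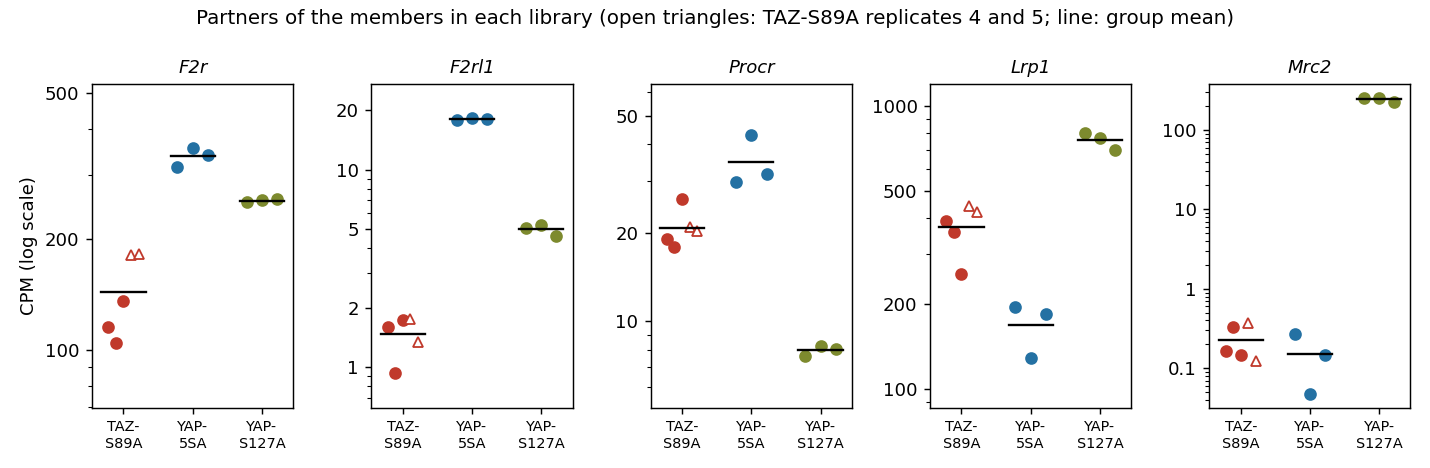
CPM of 5 partner genes in each library, on log axes, with TAZ-S89A, YAP-5SA and YAP-S127A from left to right, 1 point per library, open triangles for TAZ-S89A replicates 4 and 5 and a line at each group mean. F2rl1 has its lowest values in TAZ-S89A and its highest, 17.8 to 18.1 CPM, in YAP-5SA, and Mrc2 is seen above 1 CPM in YAP-S127A alone.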

How the data were processed

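PolyA RNA of the 11 libraries was sequenced, and each library was placed in the group that its mutation label names. Replicates were numbered in accession order, so the numbers pair no libraries. The deposited counts are, per the file headers, uniquely aligned reads for each Entrez gene model. GSNAP was the authors' aligner and GRCm38 their build, per the submitters' processing notes. The sources used here do not give versions, the annotation release or the strand setting. The deposited nRPKM column is, per the file headers, an RPKM that the authors adjusted by library size factors, and it was used only to order genes within a group.

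Symbols came from RefSeq of GRCm38.p6, which matched 31049 of 36528 IDs, and the 5479 unmatched IDs held 2.91% of counts. All 9 members matched, and none overlapped another annotated gene. Counts were tested with edgeR 4.0.16 in R 4.3.3, with TMM factors, filterByExpr by group (18224 genes kept) and a robust quasi-likelihood fit of all 11 libraries in which group was the sole term. A call needs a p under 0.05 after Benjamini-Hochberg adjustment over all tested genes. The comparison within TAZ-S89A split that group by ID series in the same fit and tested 18736 genes. CPM are on the TMM scale, and an SE is the log2 fold change divided by the square root of its F statistic.

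The members and gene lists were chosen with earlier results of these data known. Items withheld from the lists are not reported here. Besides the members, up to 3 called genes of each list with the largest fold change in each comparison were named. Patterns were compared as log2 CPM (prior count 2) minus the mean of the gene over the 11 libraries, and the 2 closest genes to each member were named. Alternatives were DESeq2 1.42.0, upper-quartile or RLE factors, no or a stricter low-count filter, only the groups compared, the ID series as a covariate or its second part left out, and each library left out in turn.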

Additional observations from a re-analysis of the deposited data

Results flagged for a closer look

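Plat in the TAZ-S89A libraries had 1 library far from the others. Replicate 3 stood at 118 CPM, and the other TAZ-S89A libraries lay between 35.2 and 56.1 CPM. The gap to the nearest library took up 0.749 of the range of the group, above the critical value of 0.71 for 5 libraries. The TAZ-S89A libraries of 8 genes were examined, 1 was singled out, and chance singles out about 1 in 20 such groups, so that 1 among 8 is not unusual by that rate. The 8 genes share the same 5 libraries, so the rate is only a rough guide. Replicate 3 also stood apart over all genes in the chi-square values above. Without that library the log2 fold change of Plat in TAZ-S89A against YAP-S127A was -0.19 (edgeR adjusted p = 0.507).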

How the results depend on the processing

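Of the 24 results of single members in the comparisons between groups, 18 kept their direction and their side of the threshold under all 19 alternatives. The rest concern Plat, Tfpi and Plau in TAZ-S89A against YAP-5SA, Plat in TAZ-S89A against YAP-S127A, and Plat and Serpine2 in YAP-5SA against YAP-S127A. In TAZ-S89A against YAP-5SA, Plat turned to 0.31 and Plau to -0.42 (adjusted p = 0.0382) without TAZ-S89A replicates 4 and 5. With the ID series as a covariate, Plat was at 0.28 and Plau at -0.45 (adjusted p = 0.0202). Leaving out 1 library at a time, Plat ran from -0.44 to 0.27 and Plau from -0.072 to 0.23 in that comparison. Plat ran from -0.19 to 0.38 in TAZ-S89A against YAP-S127A and from -0.096 to 0.44 in YAP-5SA against YAP-S127A, and Serpine2 from -0.27 to 0.027 in the last. Within TAZ-S89A, 4 of 8 member results held under all 17 alternatives, Plaur ran from -0.060 to 0.30, members called from 4 to 7 and genes called from 2204 to 5562 when 1 library was left out. The fewest genes were called without replicate 4 (2204) and without replicate 5 (2642), where 1 library remains on that side and is assumed to vary like the others. The cause of these changes was not tested. With upper-quartile factors 2529 genes were called higher and 2371 lower in replicates 4 and 5. No paired analysis was possible because the labels give no replicate numbers. Depth limits Tfpi2 and, among the related genes, F11, Kng1, Plg and St14, which had at most a few counts in some groups.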

Other observations

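Besides Lrp1, the related receptor genes Lrp8 and Vldlr were tested among the plasminogen system partners. Lrp8 averaged 72.9 ± 12.8 CPM in TAZ-S89A, 34.6 ± 5.98 in YAP-5SA and 67.2 ± 3.99 in YAP-S127A. It was called lower in YAP-5SA than in YAP-S127A at -0.96 (SE 0.18, edgeR adjusted p = 0.00052). Vldlr averaged 44.2 ± 11.5, 50.4 ± 1.56 and 114 ± 2.66 CPM in the same groups, and was called lower in TAZ-S89A than in YAP-S127A at -1.37 (SE 0.17, adjusted p = 1.24e-05). Lrp8 was chosen after its values were seen.

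The 7 biliary markers summed to 1765 to 3670 CPM in TAZ-S89A, 2723 to 4278 in YAP-5SA and 467 to 591 in YAP-S127A. Different genes made up these sums, so they do not rank the groups. Spp1 averaged 2737 ± 921, 203 ± 48.7 and 326 ± 43.4 CPM in the same groups. The keratin gene Krt19 averaged 7.39 ± 2.76, 1371.5 ± 340 and 55.9 ± 8.47 CPM. Krt7 averaged 1.41 ± 0.673, 1744 ± 434 and 102 ± 14.4 CPM. Epcam was below 1 CPM on average in each group.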
